A study of Mus musculus with 2 samples.

Results

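The genes described here carry cystine into the cell, build and recycle glutathione, run the thioredoxin system, or encode Nrf2, a transcription factor that drives many of them. They are Slc7a11, Gclc, Gclm, Gss, Gsr, Gpx1, Gpx4, Txn1, Txnrd1 and Nfe2l2, picked by symbol because Slc7a11 differed so widely between the libraries. All 10 had a row among the 14500 gene symbols measured. Because the same pair of libraries prompted the choice, their values are a description, and no test was made.

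RNA was sequenced from 46C mouse embryonic stem cells, a line with green fluorescent protein in its Sox1 locus, grown on gelatin in serum medium with LIF at passages 21 to 24. The level columns of both libraries also carry the tag P3, which their headers do not explain. PB is the title of the library from cells given an empty vector, and PB-Gbx2 that of the library from cells given a vector for Gbx2, a homeobox transcription factor. Each group has 1 library, so no value has a replicate error and no difference can be set against a spread between cultures. The labels do not say whether either culture was 1 clone or a pool, or what promoter drives the transgene. The source names say the opposite of the titles (PB as overexpressing, PB-Gbx2 as control). Groups follow the titles, and with the source names every direction below would turn around. Gbx2 itself stood at a normalized level of 345 in PB and 1178 in PB-Gbx2, which goes with the titles, although vector and endogenous reads were not separated. All 10 listed markers of embryonic stem cells were measured in both libraries, with a median log2 ratio of 0.25. Pou5f1 (9446 and 10597) and Sox2 (9894 and 10302) were near equal, while 2 of the 10 were at least 2-fold higher in PB-Gbx2, Nanog (8918 and 19872) and Zfp42 (8320 and 16671). Pairs of levels are always given in the order PB, then PB-Gbx2.

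Cystine, the oxidised dimer of cysteine, enters cells in exchange for glutamate through a carrier made of the transport subunit xCT (Slc7a11) and the heavy chain 4F2hc (Slc3a2). Inside the cell it is reduced to cysteine, which glutamate-cysteine ligase (the catalytic subunit Gclc and the modifier Gclm) joins to glutamate before glutathione synthetase (Gss) adds glycine. Glutathione peroxidases use the product to reduce peroxides, glutathione reductase (Gsr) restores it with NADPH, and thioredoxin (Txn1) with its reductase (Txnrd1) forms a parallel system. Nrf2 (Nfe2l2) binds antioxidant response elements beside many of these genes, while Slc7a11 is also a known target of ATF4, the factor that responds to amino acid shortage and other stresses.

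The stretches that held a match to a motif of Nrf2 or ATF4 are shown first, for Slc7a11 and 3 other genes. RefSeq promoters (build GRCm38.p6, found by symbol) covered 8 of the 10 genes in 13 promoters. Gclc and Gsr had no entry. The 250 bases before each start were searched on both strands for TGACNNNGC, the core of the antioxidant response element, and for TGATGNAA, a C/EBP-ATF response element of the kind ATF4 binds. Both motifs begin with TGA and differ in the next letter, and no matches overlap in the stretches shown. Each stretch is written 5′ to 3′ on the strand of its gene, with the matches in capitals.
Slc7a11, chr3:50443623-50443709, minus strand, bases -96 to -10 from the start: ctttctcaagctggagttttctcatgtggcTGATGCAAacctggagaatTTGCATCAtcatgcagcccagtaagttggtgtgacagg
Gclm, chr3:122245393-122245461, plus strand, bases -164 to -96: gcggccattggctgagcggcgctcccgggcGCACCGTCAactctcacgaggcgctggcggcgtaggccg
Txnrd1, chr10:82859084-82859152, plus strand, bases -122 to -54 of the second of its 3 annotated starts: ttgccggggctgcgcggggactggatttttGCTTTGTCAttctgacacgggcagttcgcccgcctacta
Nfe2l2, chr2:75704865-75704913, minus strand, bases -250 to -202: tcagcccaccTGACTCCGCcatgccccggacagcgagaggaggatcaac

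Slc7a11 was the single gene of the 8 with a C/EBP-ATF match, and it had a pair of them that face each other, at bases -66 to -59 on the strand of the gene and at -47 to -40 on the opposite strand. Of all 32851 promoters, 3.45% held at least 1 such match and 6 (0.0183%) held matches on both strands. The antioxidant response core occurred in 3 of the 13 promoters, against 10.2% of all promoters. By gene these were 3 of 8 (Gclm, Txnrd1 and Nfe2l2), against 14.1% of the 10404 measured genes with a promoter entry. Matches are descriptions of letters in a window, not binding sites, and the absence of one says only that the letters are not in these 250 bases.

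**Figure D1:**
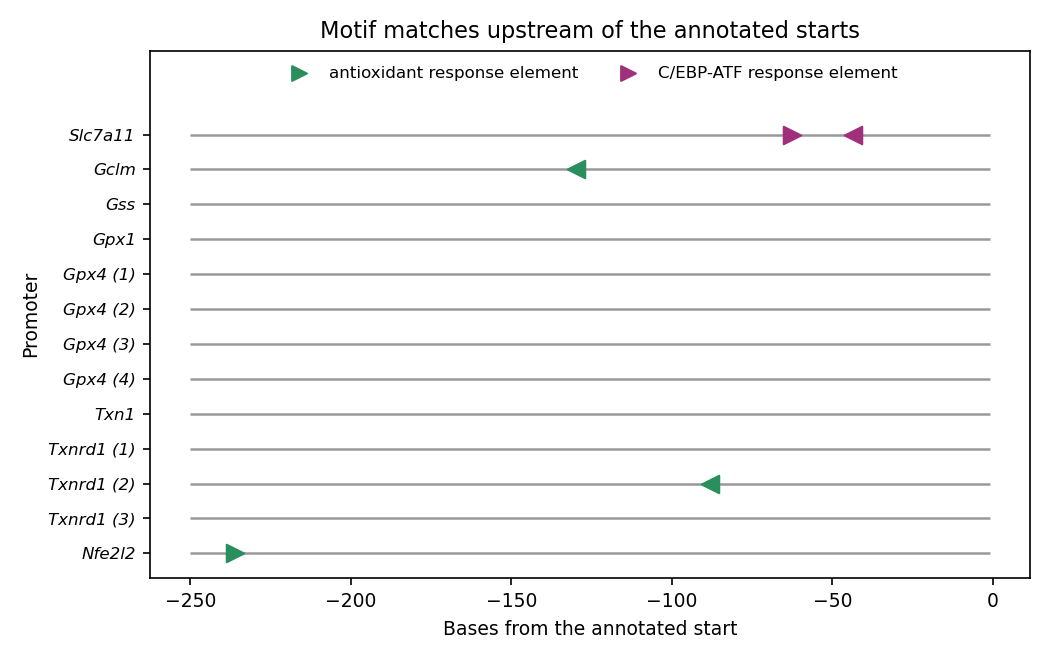
Each grey line is 1 RefSeq promoter of the genes with an entry, drawn by distance in bases from the annotated start, and triangles mark motif matches and point along their strand. Slc7a11 carries both C/EBP-ATF matches, and Gclm, Txnrd1 and Nfe2l2 carry 1 antioxidant response core each.

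Slc7a11, the cystine carrier subunit, stood at a level of 87 in the empty-vector library and 2 in the PB-Gbx2 library. The deposited levels are whole numbers, and rounding alone places the ratio anywhere from 34.6-fold to 58.3-fold lower in PB-Gbx2, around the printed 43.5-fold. On the log2 scale, after adding 1 to each level, the difference was -4.87, rank 1 from the bottom among 14500 genes. The lowest level of any gene in either library was 1, so the level of 2 lies near the bottom of the scale. No gene had a mean level under 8, which Slc7a11 passes through its PB level of 87. Such low levels scatter widely. Among the 725 genes with a mean level between 39 and 57.5, the log2 ratios had an SD of 0.976, 13.7% were at least 2-fold lower in PB-Gbx2 and 11.7% at least 2-fold higher, and none of the others was as low as Slc7a11. The authors' deposited table gives it a p of 0.000875 and an adjusted p of 0.162, from 1 library per group.

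The enzymes that build glutathione differed little. Gclc, the catalytic subunit of the rate-limiting ligase, stood at 1282 and 1314, 1.02-fold higher in PB-Gbx2. Gclm, its modifier, stood at 747 and 761, likewise 1.02-fold higher. Gss, which completes the tripeptide, stood at 426 and 468, 1.10-fold higher. Ranked from lowest to highest ratio among the 725 genes closest in mean level (1 of 20 equal groups), they lay at percentiles 56.8, 51.4 and 66.5, so the low Slc7a11 level in PB-Gbx2 was not matched by lower RNA of the synthesis enzymes. Antisense genes overlap Gss in the mouse annotation, and no strand setting of the counting is given, so their reads cannot be told apart from its own.

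Genes that recycle and use glutathione were near equal or higher in PB-Gbx2. Gsr, which regenerates reduced glutathione, stood at 1201 and 1074, 1.12-fold lower in PB-Gbx2 and at percentile 27 of genes of similar level. Gpx4, the peroxidase that reduces lipid hydroperoxides in membranes and guards against ferroptosis, stood at 8330 and 8518. Gpx1, the main cytosolic peroxidase, showed the widest difference after Slc7a11 and in the opposite direction, with 1876 and 2854, 1.52-fold higher in PB-Gbx2. Its log2 ratio of 0.61 was reached or passed by 23 of the 725 genes in its level range (itself included), and the authors' deposited table gives it a p of 0.0686 and an adjusted p of 1.

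In the thioredoxin system, Txn1 stood at 3170 and 3641, 1.15-fold higher in PB-Gbx2, and Txnrd1, the selenoenzyme that reduces it with NADPH, at 4454 and 4195, 1.06-fold lower. Nfe2l2, which encodes Nrf2, stood at 1357 and 1713, 1.26-fold higher, at percentile 88.8 of genes of similar level. Nrf2 is controlled largely through the stability of its protein, so its RNA level is no measure of its activity. Reads of Txn1 and Gpx4 can be shared with processed pseudogenes (Txn-ps1 and Gpx4-ps2 in the mouse annotation), and how the authors' counting treated them is not given.

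**Figure D2:**
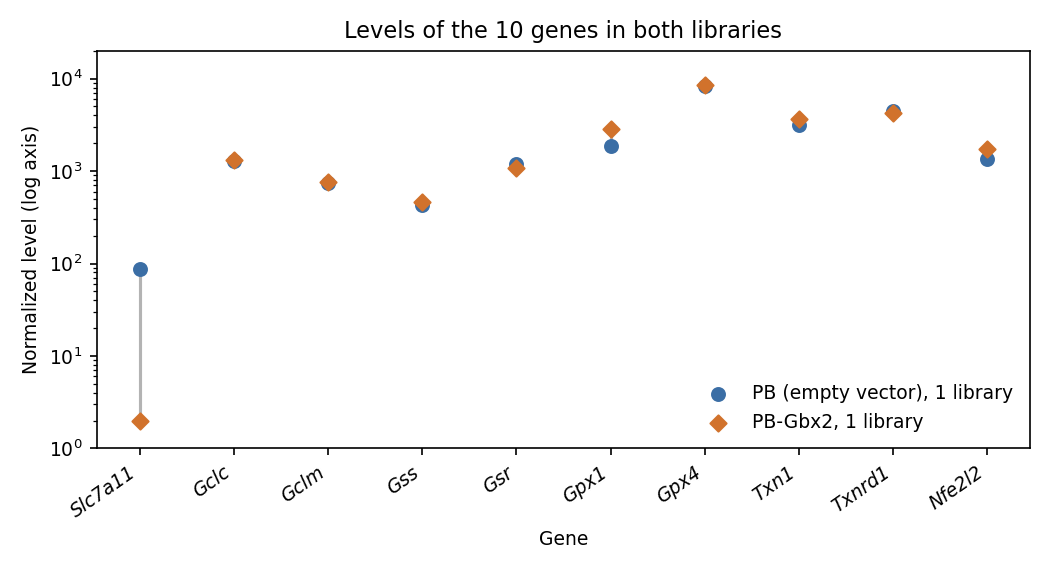
Normalized level (log axis) of each of the 10 genes in the PB library (circles) and the PB-Gbx2 library (diamonds), with a grey line joining each pair and no error bars because each group has 1 library. Slc7a11 stands at 87 and 2, Gpx1 is next in size (1876 and 2854), and the other pairs nearly coincide.

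Of the 10 genes, 1 (Slc7a11) was at least 2-fold lower in PB-Gbx2, against 5.26% of all genes, and 0 were at least 2-fold higher, against 5.14%. Slc7a11 did not reach a level of 100 in either library. Among genes that did, 2.37% were at least 2-fold lower and 2.46% at least 2-fold higher. At 1.5-fold, Slc7a11 was again the single lower gene and Gpx1 the single higher one, against 12.2% and 11.6% of all genes. The median log2 ratio of the 10 was 0.03, beside 0 for all genes. Of the 10, 7 lay above 0 and 3 below, against 49.2% and 48.9% of all genes. Without Slc7a11 the ratios ran from -0.16 (Gsr) to 0.61 (Gpx1), and 8 of these 9 genes differed by less than 1.3-fold.

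**Figure D3:**
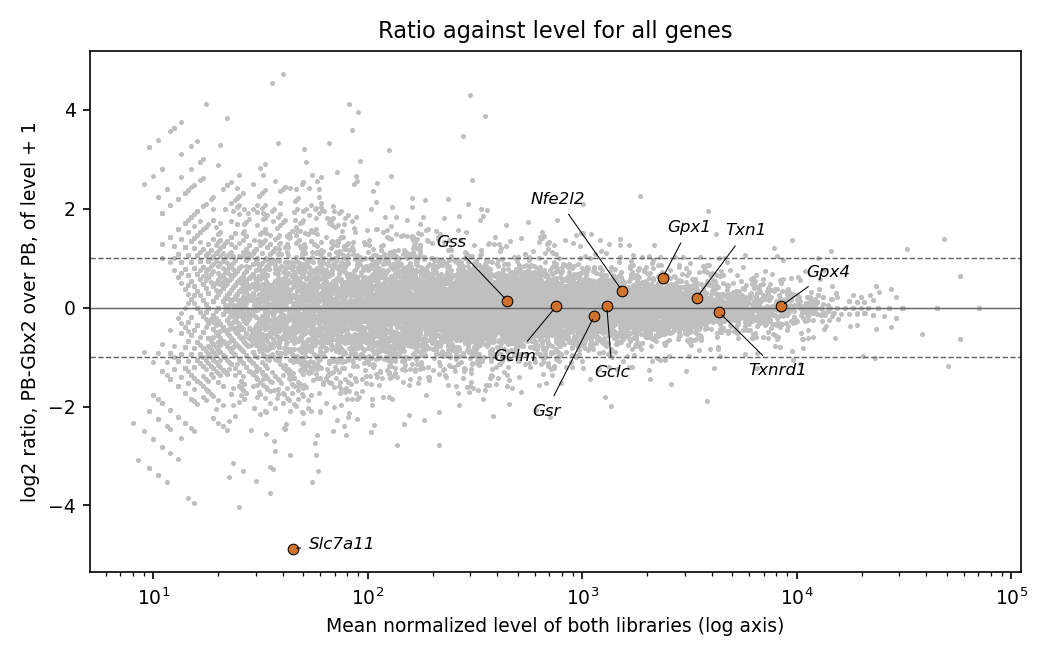
Log2 ratio of PB-Gbx2 over PB (1 added to each level) against the mean level of both libraries (log axis) for all 14500 genes in grey, with the 10 genes in orange and dashed lines at 2-fold. Slc7a11 (-4.87) lies below every other point at the left, where the cloud is wide, and the other 9 genes lie inside the cloud.

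The genes whose ratio came closest to that of Slc7a11, among genes that had a level of 50 or more in one of the libraries, were Fam196b (66 and 4), E130317F20Rik (102 and 8), Rsph9 (56 and 4), Slc45a1 (107 and 10) and Alox12b (66 and 6). Likeness here is the absolute difference of log2 ratios over 2 libraries, which was 1.13 for Fam196b and 1.62 for Alox12b, so no gene came near it. None of these 5 is a glutathione or thioredoxin gene.

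Partners in cystine and cysteine transport were lower on balance. Of 8 listed genes, 5 had a row, 4 of these lay below 0, and the median log2 ratio was -0.44, beside 0 for all genes. Slc3a2, the heavy chain that xCT needs to reach the membrane, stood at 3092 and 2276, 1.36-fold lower in PB-Gbx2. It also pairs with other light chains. Slc1a4, a carrier of neutral amino acids including cysteine, stood at 743 and 338, 2.20-fold lower, and Slc1a5, the glutamine carrier, at 2618 and 1710, 1.53-fold lower. Slc1a1, a glutamate carrier that also takes up cysteine, differed by 1.06-fold (150 and 142), and Ctns, the lysosomal cystine exporter, stood at 364 and 472.

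None of the 8 measured relatives of Slc7a11 in the Slc7 family was 2-fold lower. Of all genes 5.26% were (2.37% at a level of 100), so this count does not set the relatives apart from other genes. Slc7a3, a carrier of arginine and lysine, stood at 1871 and 1248, Slc7a7 at 690 and 507, and Slc7a5, the leucine carrier that shares the Slc3a2 heavy chain, at 5038 and 3753, 1.34-fold lower. Slc7a2 was the single member at least 2-fold higher, on levels of 36 and 79, followed by Slc7a4 at 50 and 80. The family's median log2 ratio was -0.18, with 5 below 0 and 3 above, and it was -0.42 at a level of 100 in either library.

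The route that makes cysteine from methionine inside the cell showed no common direction. Among 11 measured genes of transsulfuration and cysteine breakdown, 5 lay above 0, 5 below and 1 at 0, and the median log2 ratio was 0. Cbs and Cth, the enzymes that pass sulfur from homocysteine to cysteine, stood at 2046 and 1798 and at 2262 and 1788, 1.14-fold and 1.26-fold lower in PB-Gbx2. Mat2a, which makes S-adenosylmethionine, was 1.57-fold higher (3282 and 5159). Csad, of taurine synthesis, was 1.27-fold lower (1832 and 1447), and Cdo1, the dioxygenase that oxidises cysteine, was 2.20-fold higher (101 and 222).

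Genes of glutathione turnover had a median log2 ratio of -0.13 over 12 measured members, 6 below 0 and 5 above. Chac1, which degrades glutathione in the cytosol and is itself an ATF4 target, stood at 114 and 34, 3.35-fold lower in PB-Gbx2. Chac1 lay at percentile 2.34 of the 725 genes in its low level range, of which 10.3% were at least 2-fold lower. Its constitutive relative Chac2 went the other way (91 and 129). Ggt1, which cleaves glutathione at the cell surface, stood at 460 and 296 and Ggt7 at 116 and 72, 1.55-fold and 1.61-fold lower. Chac1 has a C/EBP-ATF match upstream of its start, on the strand opposite to the gene, shown here because it is the turnover gene with the widest ratio.
Chac1, chr2:119351019-119351086, plus strand, bases -223 to -156: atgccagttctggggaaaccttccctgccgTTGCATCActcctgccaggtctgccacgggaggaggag

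Other glutathione peroxidases and transferases were scattered around 0. Of 4 measured peroxidases outside the main 10, Gpx3, the secreted form, was 1.66-fold higher in PB-Gbx2 (787 and 1310) and Gpx2 was 1.42-fold lower (122 and 86). Among 22 measured transferases and glyoxalases, 10 lay above 0 and 12 below, with a median of -0.06. Gstm3 alone passed 2-fold (56 and 138), followed by Gsta3 (82 and 132), Gstm6 (86 and 132) and Gstm5 (142 and 94). The Gstm genes are close paralogs, so the split of reads among them is uncertain. Gsta4, which detoxifies lipid aldehydes, was near equal at 6334 and 6639.

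Thioredoxin relatives, glutaredoxins and peroxiredoxins leaned slightly upward, and 0 passed 2-fold, against 5.26% of all genes lower and 5.14% higher. Of 28 measured genes, 18 lay above 0 and 9 below, against 49.2% and 48.9% of all genes. The median log2 ratio was 0.17, and 0.08 at a level of 100 in either library. Txnip, the inhibitor that binds thioredoxin and responds to glucose, went against this lean with the widest ratio of the list, 13630 and 7760, 1.76-fold lower in PB-Gbx2. Txnrd2, the mitochondrial reductase, stood at 68 and 106, Txnl4a, a splicing protein with a thioredoxin fold, at 431 and 637, and Glrx3, a glutaredoxin of iron-sulfur transfer, at 3753 and 5286. Srxn1, which restores overoxidised peroxiredoxins and is an Nrf2 target, was 1.26-fold higher (592 and 746), while Prdx1 had the same level of 23788 in both libraries.

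Other Nrf2 targets were spread evenly around 0. Of 31 measured genes, 0 passed 2-fold in either direction. Their signs were 13 above 0 and 16 below, with a median log2 ratio of 0.00, the same as for all genes. Of all genes, 5.26% were at least 2-fold lower and 5.14% higher (2.37% and 2.46% at a level of 100). Few of 31 would pass at such shares, so the count of 0 says little about these targets. Hmox1, the haem oxygenase, stood at 894 and 896, and Nqo1, the quinone reductase often used as a readout of Nrf2, at 356 and 489, 1.37-fold higher in PB-Gbx2. The widest ratios belonged to Ugdh (1026 and 524), which makes UDP-glucuronate, Cbr3 (94 and 144), Ephx1 (768 and 1162) and Nqo2 (424 and 302). Of 25 of these genes with a promoter entry, 6 held the antioxidant response core, against 14.1% of the 10404 measured genes with an entry.

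Regulators of Nrf2 were as evenly split, with 7 of 15 above 0, 8 below and a median of -0.02. Keap1, the adaptor that sends Nrf2 for degradation, stood at 222 and 268, and Bach1, the repressor that competes with it for DNA, at 980 and 892. Nfe2, the haematopoietic relative, was 4.57-fold higher in PB-Gbx2 but on levels of 14 and 64, where ratios scatter widely. Nfe2l3 (175 and 120), Gsk3b (648 and 859) and Maff (476 and 366) had the next widest ratios.

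NADPH, which both reductases consume, comes from several routes, and the genes of these routes had a median log2 ratio of -0.01 over 15 measured members. Aldh1l2, the mitochondrial folate enzyme that yields NADPH, stood at 542 and 203, 2.67-fold lower in PB-Gbx2, and Me2, a mitochondrial malic enzyme, at 1991 and 1294, 1.54-fold lower. Nnt, the mitochondrial transhydrogenase, was 1.67-fold higher (257 and 429) and Idh1 1.36-fold higher (1900 and 2586). G6pdx, the entry enzyme of the pentose phosphate route, was 1.25-fold lower (1208 and 964). Among 4 measured genes of superoxide and catalase chemistry, Sod2, the mitochondrial dismutase, was 1.35-fold higher (1712 and 2314), and Sod1 was equal at 7587.

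Gpx1, Gpx4 and Txnrd1 contain selenocysteine, and the genes that insert it or encode further selenoproteins had a median log2 ratio of 0.12 over 16 measured members, with 9 above 0. Eefsec, the elongation factor for selenocysteine, stood at 646 and 388, 1.67-fold lower in PB-Gbx2, and Sepsecs, which makes the selenocysteine tRNA, at 298 and 424, 1.42-fold higher. Sepp1, a secreted selenium carrier, stood at 140 and 199. Dio3, a deiodinase, stood at 9 and 41, among the lowest levels in the table.

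Iron and lipid peroxidation genes, which meet this pathway at Gpx4, had 15 of 22 members below 0, against 48.9% of all genes, and a median log2 ratio of -0.11. Of the 22, 2 were at least 2-fold lower and 1 at least 2-fold higher, against 5.26% and 5.14% of all genes. Gch1, which starts the synthesis of the radical-trapping cofactor tetrahydrobiopterin, stood at 173 and 82, 2.11-fold lower in PB-Gbx2, and Alox15, a lipoxygenase, at 74 and 18. Por, an oxidoreductase that feeds electrons to cytochromes P450, was 1.55-fold lower (1884 and 1217), whereas Alox5 stood at 46 and 99. Alox15 and Alox5 are at low levels, where ratios scatter widely. The transferrin receptor Tfrc was 1.28-fold lower (21418 and 16722), and the ferritin chains Fth1 and Ftl1 were 1.18-fold and 1.13-fold higher.

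Genes of the ATF4 pathway, to which Slc7a11 and Chac1 belong, were lower on balance. Without Slc7a11, 21 of 27 measured genes lay below 0, 4 were at least 2-fold lower, 0 were at least 2-fold higher, and the median log2 ratio was -0.58. Among all genes, 48.9% lay below 0, 5.26% were at least 2-fold lower and 5.14% at least 2-fold higher (2.37% and 2.46% at a level of 100). The list shares Slc1a4, Slc1a5 and Slc3a2 with the transport list, 3 of the 4 transport genes below 0, so these medians rest partly on the same genes. The direction of this pathway was known when the list was drawn up, so it is no independent support. Beside Chac1 and Slc1a4, the 2-fold lower genes were Ddit3, the CHOP transcription factor (552 and 240), and Aldh18a1, of proline synthesis (2098 and 991). Atf4 RNA itself was 1.09-fold lower (5692 and 5218). The 6 genes above 0 included Slc38a2, a neutral amino acid carrier (3321 and 5549, 1.67-fold higher), Sesn2, a stress-induced inhibitor of mTORC1 (1942 and 2632, 1.36-fold higher), Ppp1r15a, which restores translation after stress (1120 and 1512, 1.35-fold higher), and Asns, asparagine synthetase (8508 and 8908). Of the 24 genes of this list with a promoter entry, 5 (Asns, Atf3, Chac1, Nupr1 and Vldlr) held the C/EBP-ATF letters. The share was 2.41% of the 10404 measured genes with a promoter entry. Of the 2-fold lower genes only Chac1 is among the 5, and Asns was not lower. Atf3 (30 and 16) and Vldlr (48 and 29) had low levels.

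**Figure D4:**
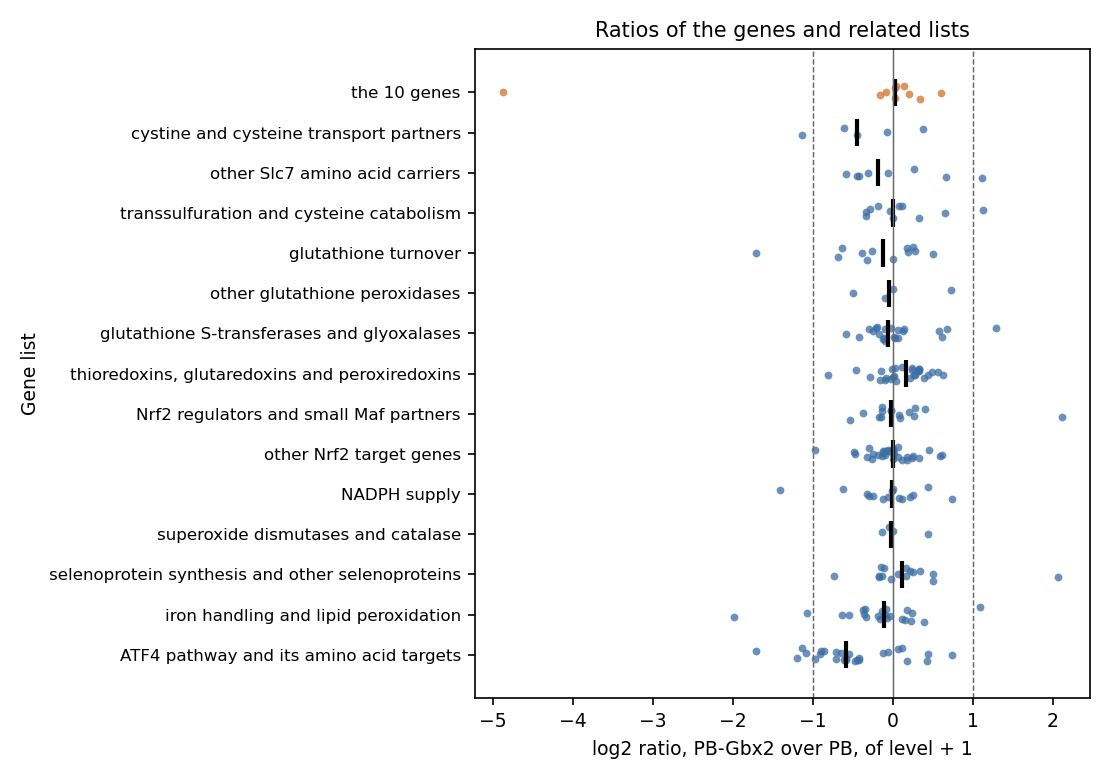
Log2 ratio of PB-Gbx2 over PB (1 added to each level) for the 10 genes (orange) and each related list without them (blue), 1 point per gene with vertical scatter for legibility, black bars at the medians and dashed lines at 2-fold. Slc7a11 stands alone at the far left of the first row, most medians lie near 0, and those of cystine transport (-0.44) and the ATF4 pathway (-0.58), which share 3 of the lower genes, lie furthest below it.

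Across all 14 lists, 197 genes were measured, of which 7 (3.55%) were at least 2-fold lower and 6 (3.05%) at least 2-fold higher in PB-Gbx2, beside 5.26% and 5.14% of all genes. At a level of 100 or more in one of the libraries, 6 of 180 (3.33%) were lower and 2 (1.11%) higher, beside 2.37% and 2.46%. For lower genes the list share thus lay under that of all genes in the first count and over it in the second. The median log2 ratio of all 197 was -0.03.

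Markers of other cell types were also looked up, and most that had a row stood at low levels or differed by less than 2-fold. Fibroblasts, which express Slc7a11 in culture and serve as feeder cells, were sought with 14 markers, of which 6 had a row. Of these 6, 4 lay below 0 and 2 above, against 48.9% and 49.2% of all genes. Only Col1a1 was at least 2-fold lower, against 5.26% of all genes, and 0 were at least 2-fold higher, against 5.14%. Their summed level was 1691 in PB and 1092 in PB-Gbx2. The lower ones were Col1a1 (132 and 36), Thy1 (866 and 492), Pdgfrb (626 and 486) and Loxl1 (42 and 34). Col1a2 (9 and 18) and Twist1 (16 and 26) were higher in PB-Gbx2, and most of the sum comes from Thy1 and Pdgfrb. The other 8, among them Col3a1, Dcn, Lum and Postn, had no row, so their levels are not known. Of 9 extraembryonic endoderm markers, 5 had a row, all higher in PB-Gbx2, with a summed level of 264 and 468. The widest ratio was that of Gata6 (18 and 45), the 1 marker of the 5 at least 2-fold higher. Of genes in the level range of Gata6, 14.2% were at least 2-fold higher. Their part in the Slc7a11 difference was not tested. In bulk RNA, fewer cells that express a gene and less of its RNA per cell cannot be told apart.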

How the data were processed

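Total RNA from 2 cultures was sequenced after Trizol extraction and a TruSeq RNA library kit, per the labels' protocols. STAR and build mm9 are named in the submitters' processing notes, with no version, and the annotation and counting tool are not given in them. The level of each gene in the deposited table is a whole number, treated as a score normalized by the authors and not as a read count, because the sorted values of both libraries are equal in all 14501 rows (total 16528899, median 388 in each). Depth is therefore unknown, which leaves values without a counting interval or a floor in reads. The lowest level was 1 and the lowest mean level of both libraries was 8. The authors' deposited ratio and log2 ratio are PB over PB-Gbx2, and the authors' p-values come from 1 library in each group.

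Log2 ratios of PB-Gbx2 over PB were computed on log2(level + 1), which understates changes of low genes. Folds are ratios of the levels as deposited. Genes at or past 2-fold on the log2(level + 1) scale were counted, and percentiles place a ratio among genes of the same twentieth of mean level (20 groups). Repeated symbols were summed, which left 14500. A total of 21 symbols read as dates, and these genes are not named. The members and gene lists were chosen with earlier results of these data known. In each list, members were left out, older and newer symbols counted as 1 gene, and 23 genes belong to more than 1 list. Named are the 10 genes, Gbx2, in each list the genes past 2-fold at a level of at least 100 and those with the widest ratios, and the 5 genes closest to Slc7a11. Others named for their role, and the promoter motifs, were chosen after values were seen. The plan assumed no unit, and these later choices were additions to it. The fold procedure was tested on simulated data. Alternatives were a pseudocount of 0.1 or 5, rescaling to the median, a minimum level of 100, a 1.5-fold threshold and the authors' log2 ratio. Promoters (250 bases before to 50 after each start) came from RefSeq, build GRCm38.p6, and no coordinate was carried to or from mm9. Python 3.11.15, numpy 2.4.6, pandas 2.3.3 and matplotlib 3.10.9 were used.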

Additional observations from a re-analysis of the deposited data

How the results depend on the processing

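A pseudocount of 5 moved the log2 ratio of Slc7a11 from -4.87 to -3.72, and a pseudocount of 0.1 gave -5.37. The other 9 genes and all list medians moved by less than 1.5-fold under every alternative run for them, the largest move of a list median being 0.48 (log2). At a minimum level of 100 Slc7a11 dropped out, which left 0 of the genes at least 2-fold lower, 259 genes in the whole table lower and 269 higher, and 6 genes of the pathway lists lower and 2 higher. With a 1.5-fold threshold, 1 of the 10 genes was higher, 24 genes of the pathway lists were lower and 16 higher, and 1770 genes in the whole table were lower and 1684 higher. For single lists, 25 of 170 counts moved by more than 1.5 times, all under these last 2 settings, which keep fewer genes or call smaller folds by construction. Rescaling to the median changed nothing, as both libraries already share 1 distribution, and says nothing about stability. No paired analysis was possible because there is a single library in each group, which also leaves none to omit.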

Other observations

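The upstream motif of Slc7a11 was also followed across the table, after its values were seen. Of 10404 genes with both a level and a RefSeq promoter, 251 held at least 1 match to TGATGNAA in the 250 bases before a start. Among these, 27 (10.8%) were at least 2-fold lower in PB-Gbx2 and 11 (4.38%) at least 2-fold higher, beside 4.58% and 4.45% of all genes with a promoter. Their median log2 ratio was -0.06, and their median mean level was 326.5, beside 465.5. At levels of 100 or more in at least 1 library, 187 remained, of which 9 (4.81%) were lower and 3 (1.60%) higher, beside 2.11% and 2.30%. Matches on both strands were held by 3 of the 251 genes, with a median log2 ratio of -0.08. Slc7a11 was the 1 gene of these 3 at least 2-fold lower, and 0 were at least 2-fold higher. The 1472 genes with the antioxidant response core had 62 (4.21%) lower and 69 (4.69%) higher, with a median log2 ratio of -0.01. These shares describe 2 libraries, were not tested, and Slc7a11 is one of the 27.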
